A study of Mus musculus with 15 samples.

Results

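The genes described here write, copy and remove DNA methylation: Dnmt1, Dnmt3a, Dnmt3b, Dnmt3l, the TET enzymes Tet1, Tet2 and Tet3, and Uhrf1. They were chosen by gene symbol, and all 8 were found among the 33340 genes of the count table. Polyadenylated RNA was sequenced from whole lungs of male C57BL/6 mice aged 10 to 12 weeks that were given bleomycin, a DNA-damaging drug that leads to lung scarring, once through the trachea at 5 U/kg. The 15 libraries came from day 0 (n = 4), day 7 (n = 4), day 14 (n = 4) and day 21 (n = 3) by their titles, and the labels name no engineered allele. The description of the series gives fewer replicates for days 0, 7 and 14 than the titles, which were followed here. Day 0 libraries were controls by their titles, but the treatment label of day 0 replicate 4 names bleomycin. The title decided its group here, and values without this library are given where they change a call of a gene named. The labels do not say that each sample came from its own animal, so the p-values measure the spread between these samples, which may be technical.

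DNA methylation is the addition of a methyl group to cytosine, mostly where a G follows it (a CpG), and in promoters it goes with gene silencing. Dnmt3a and Dnmt3b set new marks, and Dnmt3l has no activity of its own and assists them. Dnmt1 copies the marks onto the new strand after DNA replication, and Uhrf1 recognises the hemimethylated site and brings Dnmt1 to it. The TET enzymes oxidise methylcytosine, which opens a way to its removal. The libraries measured RNA, not enzyme activity or methylation.

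All 8 genes passed the filter on low counts and were among 17457 genes tested. A gene was called where edgeR's quasi-likelihood test gave it an adjusted p (Benjamini-Hochberg) under 0.05 and its fold change was over 1.5. Levels are CPM (counts scaled to the normalised library size), as mean ± SD, and differences are log2 fold changes with their standard error (SE). The comparisons with day 0 share the same 4 control libraries, so their values are set side by side and are not independent.

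Total counts ran from 15652008 to 18020661 per library. The 9 lung epithelial markers summed to 53263 to 68568 CPM per library at day 0 and to 10201 to 14838 CPM at day 21. Fibroblast markers summed to 1621 to 2253 CPM at day 0, 5218 to 6497 CPM at day 7, 3925 to 13866 CPM at day 14 and 5305 to 10214 CPM at day 21. Over all libraries, cardiac muscle markers summed to 15.4 to 701.2 CPM and thymocyte markers to 0 to 1.27 CPM. In whole lung, fewer cells of a type and less RNA per cell cannot be told apart. The share of counts from 16 mitochondrial genes also differed between libraries: it was 2.28% to 4.22% at day 0, 2.03% to 2.15% at day 7, 2.102% to 4.14% at day 14 and 2.66% to 4.01% at day 21. All day 7 libraries were at the low end of this range, so values within libraries of a low share (under 2.5%) or a high share (over 3.5%) are given beside the results.

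To see which steps of the methylation cycle moved after bleomycin, each later day was compared with day 0. Uhrf1 rose at all 3 days, Tet1 fell at days 14 and 21, and Dnmt3b and Tet2 fell at day 7. Dnmt3a rose at day 21, while Dnmt1 and Tet3 moved by less than 1.5-fold. Dnmt3l is left out of the counts that follow, since its day 14 value was known when the genes were chosen. At day 7, 3 of the other 7 genes were called, against 16.1% of all genes tested: 1 was higher (Uhrf1; 8.78% of all genes) and 2 were lower (Dnmt3b and Tet2; 7.36% of all genes). At day 14, 2 were called, against 23.1% of all genes, with 1 higher (Uhrf1, against 12%) and 1 lower (Tet1, against 11.2%). At day 21, 3 were called, against 22.5% of all genes, with 2 higher (Uhrf1 and Dnmt3a, against 12.4%) and 1 lower (Tet1, against 10.1%). By adjusted p alone, 5, 4 and 4 of these 7 genes passed edgeR's test at days 7, 14 and 21, against 25%, 33.1% and 29.8% of all genes. For days 7, 14 and 21 in turn, the median log2 fold change of these 7 genes was -0.47 (the Tet3 value), 0.19 (Dnmt3b) and 0.22 (Dnmt1). All genes tested had medians of 0.01, 0.02 and 0.02. Counting Dnmt3l raised the medians to -0.14, 0.25 and 0.38, which are given as a description only. The groups did not overlap for 6 of the 7 genes at day 7, 3 at day 14 and 3 at day 21, against 30.8%, 31.1% and 35.5% of all genes. With so few genes, none of these shares is read as a property of the family.

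**Figure D1:**
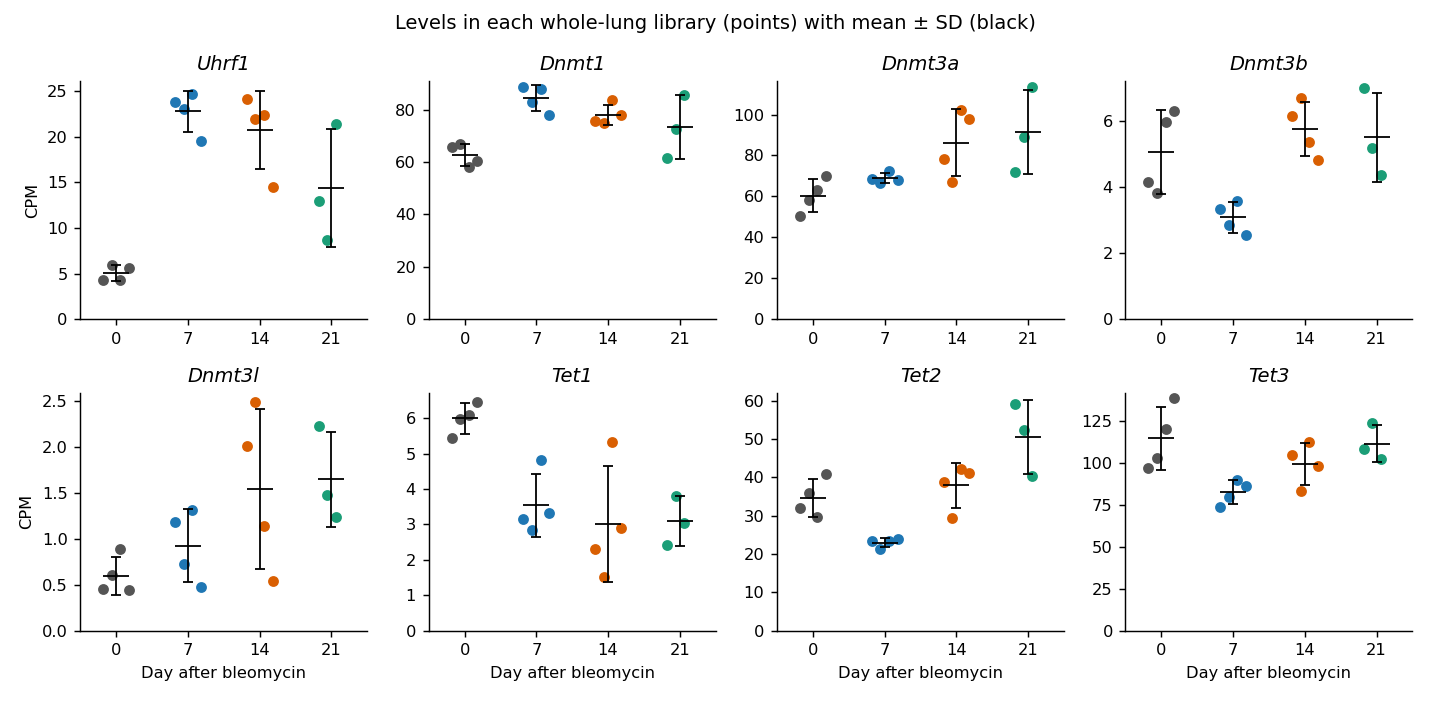
Level of each gene in CPM (vertical axis, from 0) by day after bleomycin (horizontal axis), with 1 point per library and the mean ± SD in black. Uhrf1 lies at 4.25 to 5.98 CPM at day 0 and between 8.71 and 24.7 CPM in the later libraries, Tet1 is lower in every later library than at day 0, and Tet2 and Dnmt3b dip at day 7.

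Uhrf1, the reader of hemimethylated DNA, had the largest difference of the 8 genes at every day, but at day 21 by a margin over Dnmt3l (1.51 and 1.45 on the log2 scale) far below their SE. There the order turned with limma voom and without day 0 replicate 3 or day 21 replicate 3. Its gene (ENSMUSG00000001228) lies on chromosome 17 at 56303321 to 56323486, plus strand, of mm10. Its level was 4.33, 5.98, 4.25 and 5.57 CPM at day 0, and 23.8, 23.1, 24.7 and 19.5 CPM at day 7. It was 24.1, 22.0, 22.3 and 14.5 CPM at day 14, and 13.0, 8.71 and 21.4 CPM at day 21. Every later library was above every day 0 library, and the day 21 libraries were the most spread out. The log2 fold change was 2.17 (SE 0.24) at day 7, 2.04 (SE 0.24) at day 14 and 1.51 (SE 0.25) at day 21, with edgeR adjusted p of 4.6e-05, 2.1e-05 and 0.000471. The day 7 rise was 2.12 (adjusted p 0.000624) within libraries of a low mitochondrial share, and the day 14 rise was 1.98 (adjusted p 0.00261) within those of a high share. From day 7 to day 21 Uhrf1 differed by -0.67 (SE 0.25, edgeR adjusted p 0.0856), and by -1.10 (adjusted p 0.0116) without day 21 replicate 3. With limma voom it was -0.76 (adjusted p 0.0468).

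Dnmt1, the maintenance methyltransferase (ENSMUSG00000004099; chromosome 9 at 20907209 to 20959888, minus strand), moved much less. Its level was 65.7, 66.7, 58.1 and 60.5 CPM at day 0 and 88.7, 82.8, 87.8 and 77.8 CPM at day 7. It was 75.5, 74.8, 83.5 and 77.9 CPM at day 14, and 61.4, 72.6 and 85.7 CPM at day 21. The day 7 and day 14 libraries all lay above day 0, and the day 21 libraries overlapped with it. Its log2 fold change was 0.43 (SE 0.10, edgeR adjusted p 0.0073) at day 7, 0.31 (SE 0.10, adjusted p 0.0261) at day 14 and 0.22 (SE 0.11, adjusted p 0.136) at day 21, none past the fold threshold. It was 0.33 (adjusted p 0.0361) at day 7 within the low-share libraries and 0.40 (adjusted p 0.0568) at day 14 within the high-share ones. With levels taken per kilobase of exon, Uhrf1 was at 0.114 to 0.160 of the Dnmt1 level at day 0, 0.434 to 0.487 at day 7, 0.322 to 0.552 at day 14 and 0.208 to 0.432 at day 21. The ratio was thus higher in each of the later libraries than in any day 0 library.

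Uhrf1 and Dnmt1 act at the replication fork, so genes of DNA replication and of mitosis are shown beside them. Of 16 mitosis genes, 16, 16 and 15 rose at days 7, 14 and 21, with median log2 fold changes of 2.26, 2.61 and 1.75. On the log2 scale Mki67, the proliferation antigen, rose by 2.28 (SE 0.27), 2.54 (SE 0.27) and 1.74 (SE 0.28), and Top2a, the topoisomerase that untangles chromosomes, by 2.54 (SE 0.30), 2.74 (SE 0.30) and 1.67 (SE 0.31). Ccnb1, the cyclin of mitotic entry, rose by 2.84 (SE 0.35), 3.17 (SE 0.35) and 2.45 (SE 0.37), and its kinase Cdk1 by 3.06 (SE 0.27) at day 14. Of 20 DNA replication genes, 19 were tested, and 15, 15 and 9 rose at days 7, 14 and 21, with medians of 1.17, 1.05 and 0.81. Gins2, a part of the replicative helicase, rose by 1.99 (SE 0.35), 2.48 (SE 0.35) and 2.02 (SE 0.36), and Rrm2, which makes deoxynucleotides, by 2.22 (SE 0.26) and 2.37 (SE 0.26) at days 7 and 14. Pole, a replicative polymerase, rose by 1.58 (SE 0.26) at day 21. Mcm5, another helicase subunit, rose by 1.57 (SE 0.22), 1.35 (SE 0.22) and 0.85 (SE 0.23), and at day 21 by only 0.36 (edgeR adjusted p 0.178) without replicate 3 of that day.

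The mitosis genes were also summed in each library to be set beside Uhrf1. The 16 mitosis genes summed to 84.3, 102.1, 64.9 and 66.6 CPM at day 0, 385.9, 285.1, 379.5 and 391.2 CPM at day 7, 436.2, 433.9, 537.9 and 398.4 CPM at day 14, and 254.5, 135.8 and 336.7 CPM at day 21. At day 21, replicate 2 was lowest and replicate 3 highest for both Uhrf1 and the sum. The 20 DNA replication genes gave the same order at day 21, with 298.0, 265.2 and 439.1 CPM. At day 7, Uhrf1 was lowest in replicate 4, where the mitosis sum was highest, and the sum was lowest in replicate 2. At day 14, replicate 4 was lowest for both measures, but Uhrf1 was highest in replicate 1 and the mitosis sum in replicate 3. The DNA replication genes summed to 507.1, 459.1, 501.8 and 399.8 CPM at day 7 and 462.4, 461.5, 402.2 and 365.3 CPM at day 14. Like Uhrf1, this sum was lowest in replicate 4 at both days and highest in replicate 1 at day 14. At day 7 it was highest in replicate 1, and Uhrf1 in replicate 3. What part these genes have in the Uhrf1 values was not tested.

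**Figure D2:**
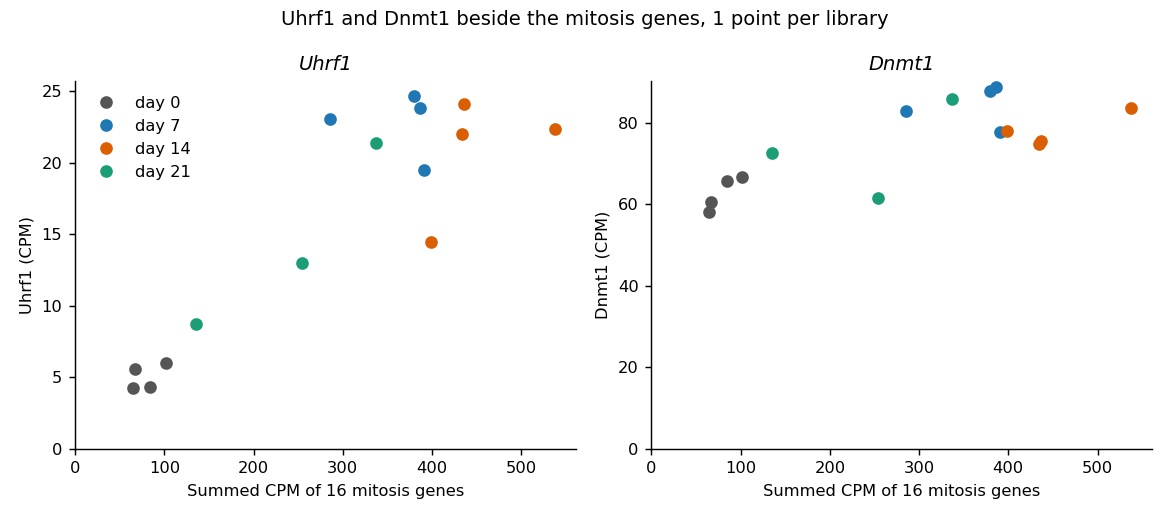
Uhrf1 (left) and Dnmt1 (right) in CPM (vertical axes) against the summed CPM of the 16 mitosis genes (horizontal axis), with 1 point per library coloured by day. Day 0 libraries lie at the lower left in both panels, the day 21 libraries spread from near day 0 up to the day 7 and day 14 levels for Uhrf1, and the Dnmt1 points span a narrower relative range.

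Promoter windows of Uhrf1 and Dnmt1 are printed here because both genes act with the replication machinery, together with Hells, the remodeller that assists Dnmt1. The windows are RefSeq sequences of GRCm38.p6, from 250 bases before to 50 after an annotated start, written 5′ to 3′ on the strand of the gene. Capitals mark a match to 1 of 3 octamers, TTTCCCGC, TTTGGCGC and TTCCCGCC, which are common forms of the binding motif of E2F factors, the regulators of replication genes. Both strands were searched, and TTTCCCGC and TTCCCGCC can overlap. The Uhrf1 window is chr17:56303087-56303386, the Dnmt1 window is chr9:20952574-20952873, the innermost of 3 for that gene, and the Hells window is chr19:38930740-38931039.
Uhrf1: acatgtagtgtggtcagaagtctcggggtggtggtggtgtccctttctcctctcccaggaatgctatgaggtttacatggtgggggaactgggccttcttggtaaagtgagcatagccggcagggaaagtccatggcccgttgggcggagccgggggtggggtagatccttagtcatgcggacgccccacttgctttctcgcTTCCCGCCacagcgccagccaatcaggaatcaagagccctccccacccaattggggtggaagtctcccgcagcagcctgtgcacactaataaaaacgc
Dnmt1: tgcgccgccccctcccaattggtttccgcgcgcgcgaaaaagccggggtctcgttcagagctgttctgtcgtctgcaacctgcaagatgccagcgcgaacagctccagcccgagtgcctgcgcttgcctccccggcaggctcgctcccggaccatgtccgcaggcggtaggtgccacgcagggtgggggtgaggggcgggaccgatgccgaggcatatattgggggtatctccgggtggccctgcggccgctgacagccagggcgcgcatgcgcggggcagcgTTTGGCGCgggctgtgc
Hells: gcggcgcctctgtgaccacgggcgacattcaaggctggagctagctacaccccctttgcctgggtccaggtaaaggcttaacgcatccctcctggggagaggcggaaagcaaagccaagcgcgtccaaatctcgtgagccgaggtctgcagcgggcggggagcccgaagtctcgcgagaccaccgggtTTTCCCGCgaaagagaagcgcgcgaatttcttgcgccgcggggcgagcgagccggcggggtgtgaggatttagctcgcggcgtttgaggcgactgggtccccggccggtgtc
The match began at base -48 from the start in Uhrf1 and at base -62 in Hells, both before the start. In Dnmt1 it began at base 33, after the start, and so inside the gene, downstream of all 3 starts annotated for it. The Dnmt1 window next to it on the upstream side, chr9:20952930-20953229, held no match. Of 32851 windows of this length, 3.21% held any of the 3 octamers. This is a share per window, while the window printed was picked for its match where a gene had more than 1. The printed windows also held 12, 33 and 34 CpGs (Uhrf1, Dnmt1 and Hells), so the share is not a matched background. Neither the second Uhrf1 window, nor the other Dnmt1 windows, nor any window of Dnmt3a, Dnmt3b, Dnmt3l, Tet1, Tet2 or Tet3 held a match. CpG counts set these promoters apart from each other: the Tet2 window held 57, the 3 Dnmt3a windows 46, 47 and 18, the Dnmt3b window 30, and the 3 Dnmt3l windows 6, 4 and 3, beside a median of 7 over all windows. A match or a CpG count describes the letters only.

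Among the de novo enzymes, Dnmt3a (ENSMUSG00000020661; chromosome 12 at 3806007 to 3914443, plus strand) was called only at day 21. Its level was 50.5, 58.0, 63.2 and 69.8 CPM at day 0 and 68.4, 66.3, 72.4 and 68.2 CPM at day 7. It was 78.3, 67.0, 102.1 and 97.6 CPM at day 14, and 71.9, 89.3 and 113.2 CPM at day 21. Only the day 21 libraries all lay above day 0. Against day 0 the log2 fold change was 0.19 (SE 0.15, edgeR adjusted p 0.382) at day 7, 0.51 (SE 0.15, adjusted p 0.017) at day 14 and 0.60 (SE 0.16, adjusted p 0.0117) at day 21. The day 21 value was just past the fold threshold, and the call was lost under 11 of 17 alternatives. These included DESeq2 (0.58), limma voom (0.58), RLE scaling (0.58), no filter on low counts (0.56), a filter at a mean of 1 CPM (0.57) and a fit to the 2 days alone (0.57). It was also lost without day 0 replicate 1 (0.48), day 0 replicate 2 (0.54), day 21 replicate 2 (0.58) or day 21 replicate 3 (0.37, adjusted p 0.112). At day 14 the gene was called only without day 14 replicate 2 (0.60). Within low-share libraries Dnmt3a was at 0.33 (edgeR adjusted p 0.0471) at day 7, and within high-share libraries at 0.40 (adjusted p 0.174) at day 14. Dnmt3aos, a gene on the opposite strand, shares 133 exonic bases with Dnmt3a and had at most 10 counts in any library.

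Dnmt3b (ENSMUSG00000027478; chromosome 2 at 153649450 to 153687730, plus strand), the other de novo enzyme, was scarcer. Its level was 4.14, 3.81, 5.96 and 6.30 CPM at day 0 and 3.34, 2.84, 3.57 and 2.55 CPM at day 7. It was 6.14, 6.69, 5.37 and 4.82 CPM at day 14, and 6.98, 5.18 and 4.35 CPM at day 21. The 4 day 7 libraries were the lowest of the series, and day 0 overlapped with days 14 and 21. On the log2 scale its fold change was -0.71 (SE 0.22, edgeR adjusted p 0.0297) at day 7, 0.19 (SE 0.22, adjusted p 0.543) at day 14 and 0.12 (SE 0.24, adjusted p 0.737) at day 21. The day 0 libraries of low mitochondrial share, replicates 1 and 2, were also the ones with the lower Dnmt3b, and within low-share libraries the day 7 value was -0.38 (adjusted p 0.295). With the share as a covariate it was -0.45 (adjusted p 0.262). The call was also lost without day 0 replicate 3 (-0.65), day 0 replicate 4 (-0.61), day 7 replicate 2 (-0.68) or day 7 replicate 4 (-0.64).

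Dnmt3l, the inactive partner of the de novo enzymes (ENSMUSG00000000730; chromosome 10 at 78041947 to 78063622, plus strand), had the lowest mean CPM of the 8 genes at each day. It had 7, 10, 14 and 8 counts at day 0 and 21, 13, 24 and 8 at day 7. It had 34, 39, 20 and 9 counts at day 14 and 36, 26 and 21 at day 21. In CPM the mean went from 0.598 ± 0.207 on day 0 to 0.926 ± 0.394 on day 7, 1.54 ± 0.868 on day 14 and 1.65 ± 0.515 on day 21. Day 7 replicates 2 and 4 and day 14 replicate 4 lay within the day 0 range in CPM, and the day 21 libraries all lay above it. The log2 fold change was 0.63 (SE 0.48), 1.36 (SE 0.47) and 1.45 (SE 0.49) at days 7, 14 and 21. Dnmt3l was tested with the other genes, but its test is not used, since its day 14 value was known when the genes were chosen. Aire, on the opposite strand, shares 67 exonic bases with Dnmt3l and had at most 5 counts in any library. The counting strand is not given in the sources used here, so reads from the shared stretch cannot be told apart.

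Tet1 (ENSMUSG00000047146; chromosome 10 at 62804570 to 62908996, minus strand) was the TET enzyme called lower at days 14 and 21. Its level was 5.43, 5.98, 6.09 and 6.46 CPM at day 0 and 3.17, 2.84, 4.83 and 3.33 CPM at day 7. It was 2.30, 1.53, 5.32 and 2.89 CPM at day 14, and 2.41, 3.81 and 3.06 CPM at day 21. All later libraries lay below day 0, with day 14 replicate 3 the closest to it. Its log2 fold change was -0.76 (SE 0.31, edgeR adjusted p 0.0804) at day 7, -0.99 (SE 0.31, adjusted p 0.0223) at day 14 and -0.95 (SE 0.34, adjusted p 0.0437) at day 21. DESeq2 (-0.78, adjusted p 0.0428), limma voom (-0.78, adjusted p 0.0449) and a fit to days 0 and 7 alone (-0.79, adjusted p 0.0149) called it at day 7. The value was -0.70 (adjusted p 0.0884) at day 7 within low-share libraries and -0.96 (adjusted p 0.169) at day 14 within high-share libraries. The day 14 call was lost without day 14 replicate 1 (-0.90) or replicate 2 (-0.79). The day 21 call was lost without any 1 of the day 0 libraries (-0.94 to -1.03, adjusted p 0.0523 to 0.0761), without day 21 replicate 1 (-0.84, adjusted p 0.126) and without day 21 replicate 3 (-0.98, adjusted p 0.0851).

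Endothelial markers were lower too at some days, and are given beside Tet1 as a measured fact. The 8 markers summed to 3483 to 4246 CPM at day 0, 2686 to 3297 CPM at day 7, 2316 to 3492 CPM at day 14 and 3228 to 4073 CPM at day 21. Of these 8, 3, 3 and 1 fell at days 7, 14 and 21, and 1 rose at day 21. Of 9 epithelial markers, 2, 5 and 5 fell at the same days and none rose by the edgeR thresholds. Adipocyte markers summed to 18.8 to 25.02 CPM at day 0, 4.63 to 22.9 at day 7, 0.767 to 3.89 at day 14 and 0.968 to 2.41 at day 21, and 1, 3 and 2 of the 4 tested fell. The part of all these markers in the Tet1 values was not tested.

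Tet2 (ENSMUSG00000040943; chromosome 3 at 133463679 to 133545139, minus strand), which is also known as a tumour suppressor of blood cells, fell at day 7 and was higher at the later days than at day 7. Its level was 31.9, 35.9, 29.7 and 40.9 CPM at day 0 and 23.3, 21.4, 23.5 and 23.8 CPM at day 7. It was 38.9, 29.5, 42.2 and 41.1 CPM at day 14, and 59.2, 52.3 and 40.3 CPM at day 21. The 4 day 7 libraries were tightly grouped below all others, and 2 of 3 day 21 libraries were above all others. Against day 0 the log2 fold change was -0.59 (SE 0.14, edgeR adjusted p 0.00765) at day 7, 0.13 (SE 0.14, adjusted p 0.4995) at day 14 and 0.55 (SE 0.15, adjusted p 0.0120) at day 21. The day 7 value was close to the fold threshold, and its call was lost within low-share libraries (-0.58, adjusted p 0.00717), with limma voom (-0.58, adjusted p 0.0121) and with the share as a covariate (-0.52, adjusted p 0.0631). It was also lost without day 0 replicate 4 (-0.52) or day 7 replicate 2 (-0.56). The day 21 value passed the fold threshold without day 0 replicate 4 (0.61) or day 21 replicate 3 (0.64). Leukocyte markers, given because Tet2 is well known from blood cells, summed to 725.7 to 1018 CPM at day 0, 671.1 to 828.5 CPM at day 7, 841.4 to 1103 CPM at day 14 and 566.0 to 1051 CPM at day 21. Of 12 leukocyte markers, 3, 4 and 3 rose and 2, 3 and 4 fell at days 7, 14 and 21, and their part in the Tet2 values was not tested.

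Tet3 (ENSMUSG00000034832; chromosome 6 at 83362373 to 83459084, minus strand) had the highest CPM of the TET enzymes. Its level was 96.8, 102.6, 119.9 and 138.3 CPM at day 0 and 73.7, 79.6, 89.8 and 86.3 CPM at day 7. It was 104.5, 83.0, 112.4 and 97.7 CPM at day 14, and 107.8, 123.6 and 102.2 CPM at day 21. Only the day 7 libraries were all below day 0. On the log2 scale its fold change was -0.47 (SE 0.13, edgeR adjusted p 0.0136) at day 7, -0.20 (SE 0.13, adjusted p 0.232) at day 14 and -0.04 (SE 0.14, adjusted p 0.850) at day 21, none past the fold threshold. Within low-share libraries the day 7 value was -0.29 (adjusted p 0.0789), and with the share as a covariate -0.36 (adjusted p 0.131). Within high-share libraries the day 14 value was -0.42 (edgeR adjusted p 0.103).

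**Figure D3:**
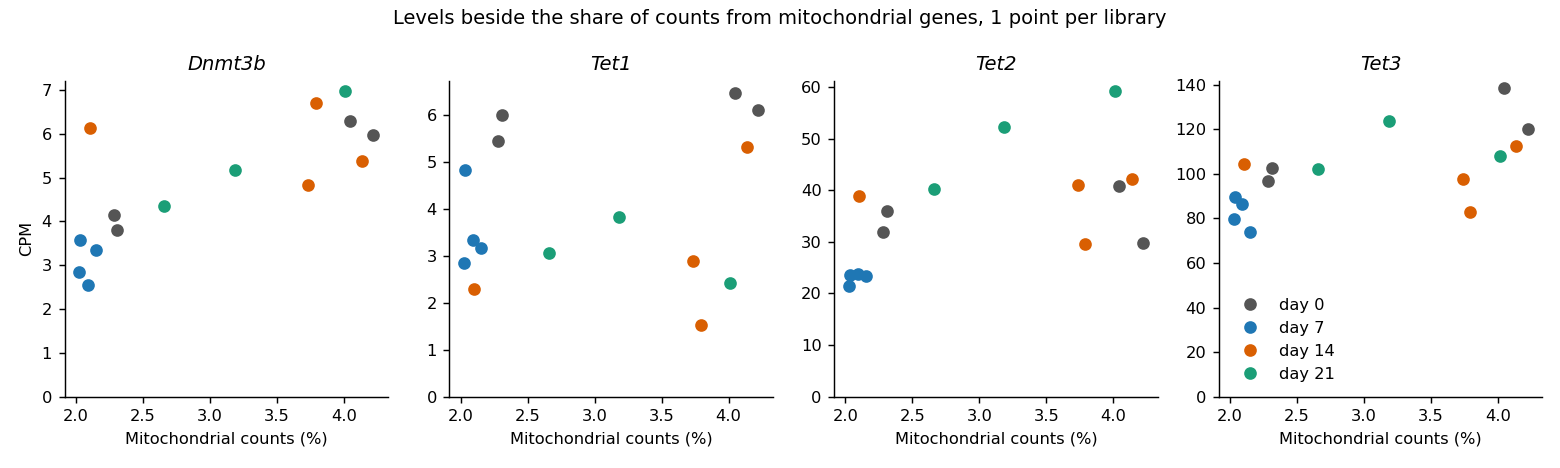
Level in CPM (vertical axes, from 0) of Dnmt3b, Tet1, Tet2 and Tet3 against the share of counts from 16 mitochondrial genes in percent (horizontal axis), with 1 point per library coloured by day. All day 7 libraries lie between 2.03% and 2.15%, and the 2 day 0 libraries with a share near them have less Dnmt3b and Tet3 than the other 2 day 0 libraries.

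**Figure D4:**
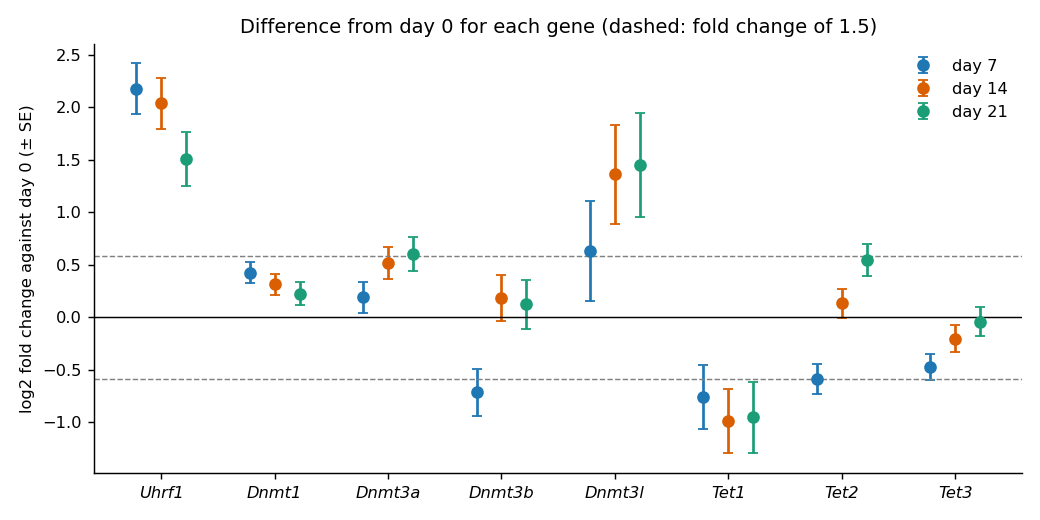
Log2 fold change against day 0 (vertical axis) of each gene at days 7, 14 and 21, with bars of ± 1 SE and dashed lines at a fold change of 1.5. Uhrf1 stands at 1.51 to 2.17, Tet1 between -0.76 and -0.99, and Dnmt3b and Tet2 cross from below 0 at day 7 to above 0 at day 21.

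The later days were also compared with each other. These comparisons were added after the low day 7 values of Dnmt3b and Tet2 were seen, and both use the same day 7 libraries. Their values for this pair are thus not independent evidence of a return from day 7. From day 7 to day 14, 2 of the 7 genes other than Dnmt3l were called, against 6% of all genes, both higher (2.77% of all genes were). Dnmt3b differed by 0.90 (SE 0.22, edgeR adjusted p 0.0271) and Tet2 by 0.72 (SE 0.14, edgeR adjusted p 0.0121). From day 7 to day 21 the same pair was called, against 9.54% of all genes (5.2% higher), with 0.84 (SE 0.24, adjusted p 0.0332) for Dnmt3b and 1.14 (SE 0.15, adjusted p 0.000771) for Tet2. Tet3 differed by 0.43 (SE 0.14, adjusted p 0.0467) from day 7 to day 21, under the fold threshold. With mitochondrial share as a covariate, Dnmt3b differed by 0.63 (adjusted p 0.211) at day 14 and 0.56 (adjusted p 0.215) at day 21, and Tet2 by 0.64 (adjusted p 0.087) at day 14. The Tet2 difference at day 21 stayed past both thresholds under all 17 alternatives, from 0.99 to 1.25. The Dnmt3b call at day 14 was lost without day 7 replicate 1 (0.94), 2 (0.87) or 4 (0.82) or day 14 replicate 2 (0.82) or 3 (0.93), and the call at day 21 without any 1 of the day 7 libraries (0.76 to 0.92) or day 21 replicate 1 (0.61) or 2 (0.85). Between days 14 and 21, 0 of these 7 genes were called with edgeR, as with DESeq2 and limma voom, and 2 (Tet2 and Uhrf1) had an unadjusted p under 0.05 in edgeR. Of all genes, 0% were called with edgeR and limma voom and 0.322% with DESeq2.

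Levels of different genes were compared per kilobase of exon. At day 0 the order was Dnmt1 (8.51 ± 0.562 CPM per kb), Tet3 (6.85 ± 1.12), Dnmt3a (3.63 ± 0.491), Tet2 (2.05 ± 0.289), Uhrf1 (1.18 ± 0.205), Dnmt3b (0.989 ± 0.247), Tet1 (0.388 ± 0.0276) and Dnmt3l (0.200 ± 0.0692). Dnmt1 and Tet3 overlapped, as did Uhrf1 and Dnmt3b, and the other neighbours did not. At day 7 Uhrf1 stood second with 5.35 CPM per kb, between Dnmt1 (11.4) and Tet3 (4.93), and overlapped with Tet3. Tet1 was last at days 7, 14 and 21, with 0.229, 0.195 and 0.200 CPM per kb, overlapping with Dnmt3l (0.310) at day 7 and with Dnmt3l (0.517) at day 14. The summed level of the 3 TET enzymes per kb was 1.88 to 2.09 times that of Dnmt3a plus Dnmt3b at day 0. It was 1.26 to 1.48 times at day 7, 1.24 to 1.47 at day 14 and 1.14 to 1.78 at day 21, so the later libraries were all below day 0 in this ratio. The ratio was formed after the data were seen and is given without a test.

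Genes with the most similar course were found by the root mean square difference of log2 CPM, centred on each gene's mean, over the 15 libraries and 15334 genes. For Uhrf1 these included Cks1b (0.224) and Pclaf (0.242), beside a median of 0.976 over all candidates. For Dnmt1 they were Stk3 (0.0759), Tspan31 (0.0792) and Thumpd3 (0.0835), beside a median of 0.365. For Tet1 they were Wasf3 (0.188), Chrdl1 (0.226) and Sema6a (0.230), with a median of 0.658, and for Tet2 Ptbp2 (0.201), Scai (0.202) and Zfc3h1 (0.203), with a median of 0.540. For Dnmt3l the closest, Klhl6, was at 0.361, beside a median of 0.789.

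Partners of the maintenance step were taken from a list of 12 genes, of which 11 were tested. Of these, 3, 2 and 1 rose at days 7, 14 and 21 and none fell, with medians of -0.03, 0.22 and 0.07. Hells was at 3.13 ± 0.0927 CPM at day 0 and 10.8 ± 2.17, 12.9 ± 2.67 and 9.60 ± 2.12 CPM at days 7, 14 and 21, a rise of 1.78 (SE 0.20), 2.04 (SE 0.20) and 1.61 (SE 0.21). On the log2 scale Lig1, the ligase that joins newly made strands, rose by 0.88 (SE 0.18) and 0.83 (SE 0.18) at days 7 and 14. Pcna, the sliding clamp of replication, rose by 0.65 (SE 0.13) at day 7 and was under the fold threshold there without day 0 replicate 4 (0.58) or day 7 replicate 1 (0.57), and at 0.57 within low-share libraries.

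Proteins that read methylated CpGs were counted in the same way. Of 10, 0, 2 and 0 were called at days 7, 14 and 21 with edgeR, while 4, 3 and 2 had an unadjusted p under 0.05. DESeq2 called 1, 2 and 0 and limma voom 0, 2 and 0. At day 14 on the log2 scale Zbtb4 fell by 0.71 (SE 0.16). Within high-share libraries it was at -0.58 (edgeR adjusted p 0.088). Zbtb4 stood at -0.53 (adjusted p 0.0275) at day 21, under the fold threshold, and passed it without day 0 replicate 3 (-0.63) or day 21 replicate 2 (-0.70).

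Downstream of the TET enzymes, 15 genes of base removal and TET partners were tested. At days 7, 14 and 21, 2, 3 and 4 rose and 2, 1 and 0 fell, with medians of 0.08, 0.05 and -0.06. Tdg, the glycosylase that removes the oxidised bases, was at 38.9 ± 6.54 CPM at day 0 and 58.1 ± 9.72 and 58.3 ± 4.72 CPM at days 14 and 21. It differed by 0.28 (SE 0.13), 0.58 (SE 0.13) and 0.59 (SE 0.14), past both thresholds only at day 21, where the call was lost under 13 of 17 alternatives, among them those without day 0 replicate 1 (0.50), 2 (0.47) or 4 (0.58) or day 21 replicate 1 (0.49) or 2 (0.55). At day 14 it passed the fold threshold without day 0 replicate 3 (0.67) or day 14 replicate 3 (0.66) or 4 (0.63). On the log2 scale Neil3, a repair glycosylase of dividing cells, rose by 1.84 (SE 0.28), 2.94 (SE 0.28) and 1.93 (SE 0.29). Gadd45g, a stress-induced gene, rose by 1.17 (SE 0.23), 1.60 (SE 0.23) and 1.43 (SE 0.24).

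Methyl donor supply held genes that moved in both directions. Of 12 genes, 1, 1 and 1 rose and 2, 2 and 3 fell at days 7, 14 and 21, with medians of -0.12, -0.16 and -0.12. Gnmt, which consumes S-adenosylmethionine by methylating glycine, was at 10.3 ± 3.22 CPM at day 0 and 3.35 ± 0.601 CPM at day 7, and ranged from 1.83 to 2.99 CPM at day 14 and from 1.41 to 3.53 CPM at day 21, with log2 fold changes of -1.62 (SE 0.29), -2.04 (SE 0.30) and -1.92 (SE 0.33). Nnmt, which spends the same donor on nicotinamide, rose on the log2 scale by 1.17 (SE 0.25), 1.46 (SE 0.25) and 1.68 (SE 0.27). Mat2a, which makes S-adenosylmethionine, was at 388.2 ± 181.3 CPM at day 0 and fell by 1.25 (SE 0.28) on the log2 scale at day 7. Its day 0 libraries ranged from 211.4 to 563.6 CPM, and within low-share libraries the day 7 value was -0.53 (edgeR adjusted p 0.0217). At day 14 it was called at -0.86 (SE 0.27), and the call was lost without day 0 replicate 3 (-0.70) or 4 (-0.64, edgeR adjusted p 0.0913) or day 14 replicate 1 (-0.74) or 2 (-0.85). At day 21 it was called at -1.10 (SE 0.30, edgeR adjusted p 0.0127), and the call was lost under 1 of 17 alternatives. Of 10 genes of 2-oxoglutarate supply, the co-substrate of the TET enzymes, 0, 0 and 1 were called at days 7, 14 and 21 with edgeR, 4, 4 and 3 had an unadjusted p under 0.05, DESeq2 called 0, 0 and 2, and limma voom 0, 0 and 1. The gene called was Idh2, with a log2 fold change of -0.73 (SE 0.10) at day 21.

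**Figure D5:**
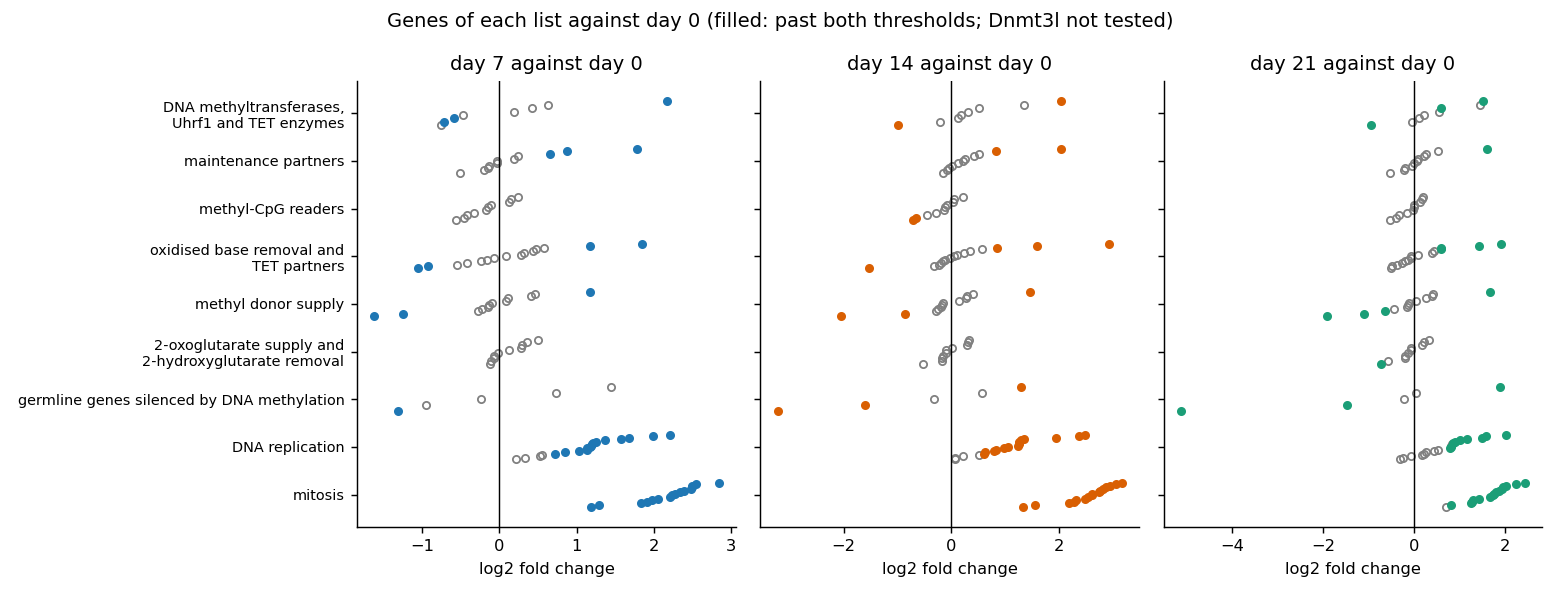
Log2 fold change against day 0 (horizontal axis) of each tested gene, by list (rows), at days 7, 14 and 21 (panels, each with its own scale). Filled points passed both thresholds and open points did not. Dnmt3l is drawn open at every day because its test is not used, which is what the title means by not tested. Mitosis and DNA replication genes lie almost wholly to the right. The medians of the other lists drawn here, with Dnmt3l included, lie between -0.33 and 0.38.

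Germline genes that DNA methylation is known to silence in body cells were examined as a possible readout. Of 16, only 5 were high enough to be tested, and 0, 1 and 1 rose and 1, 2 and 2 fell at days 7, 14 and 21. Tex11, a meiosis gene, had 72 to 94 counts per library at day 0, 18 to 51 at day 7, 1 to 15 at day 14 and 1 to 4 at day 21. Its fall had an edgeR adjusted p of 0.0418, 0.000226 and 6.9e-05, and at day 7 the call was lost without any 1 of the day 0 and day 7 libraries except day 7 replicate 3 (-1.10 to -1.44, adjusted p 0.063 to 0.114) and in the fit that held the mitochondrial share (-1.02, adjusted p 0.235). Sycp3, of the synaptonemal complex, fell by 1.60 (SE 0.45) on the log2 scale at day 14, on 13 to 22 counts at day 0 and 5 to 8 at day 14. That call was lost under 2 of 18 alternatives, with -1.38 (edgeR adjusted p 0.106) within high-share libraries. The other fall at day 21 was also Sycp3 (-1.47, SE 0.48), lost under 8 of 16 alternatives, among them those without day 0 replicate 1 (-1.47), 2 (-1.45) or 3 (-1.39) or day 21 replicate 1 (-1.43) or 3 (-1.15). Stag3, a meiotic cohesin, differed by 1.90 (SE 0.49) at day 21 on 12 to 37 counts, and by 1.23 (adjusted p 0.092) without day 21 replicate 1. At day 14 it was the gene that rose (1.30, SE 0.47, edgeR adjusted p 0.0461), a call lost under 13 of 17 alternatives, DESeq2 and limma voom included. Among these were the fits without day 0 replicate 1 (1.24), 2 (1.13) or 3 (1.15) or day 14 replicate 1 (1.26), 2 (1.39) or 3 (0.98). The tested genes moved in both directions, and 11 of the 16 genes were too low to test.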

How the data were processed

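Polyadenylated RNA from 15 whole-lung samples was sequenced as paired-end reads of 150 bases. The authors trimmed reads with TrimGalore, aligned them to mm10 with HISAT2 2.1.0 and deposited raw counts per Ensembl gene from HTSeq 0.6.0, with no normalization. DESeq2 1.40.2 is also named in the submitters' processing notes. The annotation release and the strand setting are not given in the sources used here. Symbols and coordinates came from GENCODE M21 (33267 of 33340 identifiers matched, and the others held 0.00889% of counts).

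Counts were tested with edgeR 4.0.16 in R 4.3.3 (TMM, filterByExpr on day, glmQLFit and glmQLFTest, day as the only term, all libraries in 1 fit, 17457 genes, Benjamini-Hochberg adjustment). The call (fold change over 1.5, adjusted p under 0.05) follows the thresholds of the study. The common biological coefficient of variation was 22.8%. CPM used TMM-adjusted library sizes, and log2 CPM a prior count of 2. The tests were also run on simulated counts, and the outcome is not reported here. Alternatives were DESeq2 1.42.0, limma voom (limma 3.58.1), other scalings, filters and thresholds, a replicate block, each library left out, and the mitochondrial share as a covariate or a restriction. The same alternatives for comparisons between later days and for pathway genes were chosen after seeing the data.

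The 8 genes, the pathway and marker lists and the tests were chosen with earlier results of these data known, so no pattern already seen there is independent support. The genes named were the 8, the 2 called genes of each pathway list with the largest log2 fold change at each day, and by name Mki67, Top2a, Pcna, Mcm5, Hells and Tdg. For each of the 8, the rule also takes the 3 genes of most similar course among those tested with a mean of at least 1 CPM. Replicate libraries differed by more than sampling noise in every pair compared. Intervals from counts were not used. A few of the genes that the naming rule selects are not reported here.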

Additional observations from a re-analysis of the deposited data

Results flagged for a closer look

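In 30 groups of 4 libraries (the 8 genes and the summed mitosis and DNA replication genes at days 0, 7 and 14), 1 library stood apart from the others of its day by Dixon's test. The mitosis genes summed to 285.1 CPM in day 7 replicate 2, below the other 3 libraries of that day at 379.5 to 391.2 CPM, a gap of 0.89 of the whole range. Chance alone is expected to part about 5% of groups in this way. Uhrf1 in the same library, at 23.1 CPM, lay within the range of its day.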

How the results depend on the processing

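Uhrf1 kept its call against day 0 under all alternatives, from 1.99 to 2.24 at day 7, 1.94 to 2.18 at day 14 and 1.06 to 1.73 at day 21. The Dnmt3l value ranged from 0.42 to 0.86, 1.02 to 1.64 and 1.14 to 1.67. The counts below are of all 8 genes and hold Dnmt3l as a description (3, 3 and 4 genes at days 7, 14 and 21 against day 0 when it is counted). It was past the thresholds used under 10 of 20 alternatives at day 14 and 10 of 18 at day 21, so part of the change in those counts is Dnmt3l. This describes the counts only and is not support for a change in Dnmt3l. The Tet2 call from day 7 to day 21 also held throughout. Other calls of Dnmt3a, Dnmt3b, Tet1 and Tet2 were each lost under some alternatives, as given above.

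Without a fold threshold, 5 genes passed at day 7 (25% of all genes) and 5 at day 14 (33.1% of all genes). Tested against a fold of 1.5 (glmTreat), 1 gene was called at each of days 7, 14 and 21 against day 0 (4.03%, 10.1% and 10.1% of all genes), 0 from day 7 to day 14 (0.0802%) and 1 from day 7 to day 21 (1.01%). Without the filter on low counts, 2 genes were called at day 21 (12.4% of all genes) and 1 from day 7 to day 21 (5.63%), and a fit to those 2 days alone also called 1 (9.87%). With the mitochondrial share as a covariate, 1 gene was called at day 7 (7.27% of all genes), 0 from day 7 to day 14 (1.25%) and 1 from day 7 to day 21 (5.4%). Within low-share libraries 1 was called at day 7 (12.8%), and within high-share libraries 1 at day 14 (17.7%), with fewer libraries in each fit. Leaving out 1 library at a time gave 1 to 3 genes at days 7, 14 and 21 against day 0 (11.8% to 16.5%, 19.6% to 23.7% and 18.8% to 21.4% of all genes), 1 to 2 from day 7 to day 14 (1.95% to 7.47%), 1 to 3 from day 7 to day 21 (5.42% to 10.2%) and 0 from day 14 to day 21 (0% to 0.73%).

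Whether replicate numbers pair the libraries was not settled. Deviations of same-numbered libraries correlated by -0.24 to 0.22 across genes, and all 3 pairs of day 21 were below 0. Differently numbered libraries were not compared in this way. With replicate number as a block, 1 gene was called from day 7 to day 21 (9.46% of all genes), and Tet2 gained its call at day 21 (0.59) and lost it at day 7 (-0.58).

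Differences near 0 changed sign, and the cause was not tested. Tet3 at day 21 was 0.012 with the replicate block, and -0.16 to 0.034 with 1 library left out, above 0 without day 0 replicate 4. Dnmt3b was -0.13 at day 14 within high-share libraries, and at day 21 -0.03 without day 0 replicate 2 and -0.12 without day 21 replicate 1. Uhrf1 from day 7 to day 14 was 0.078 with the covariate, and -0.21 to 0.0025 with 1 library left out, above 0 without day 14 replicate 4. A day 21 fit within libraries of 1 range of share was not possible. Depth limits Dnmt3l most, with 7 to 39 counts per library.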

Other observations

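The genes of most similar course were also found for the de novo enzymes and Tet3, over the 15 libraries, as a description. For Dnmt3b the genes of most similar course were Slc35b3 (0.165), Dok3 (0.168) and Fam76b (0.178), beside a median root mean square difference of 0.541 over all candidates. For Tet3 they included Usp48 (0.109) and Kmt2b (0.111), a histone methyltransferase, beside a median of 0.409. For Dnmt3a they were Filip1l (0.134), Myef2 (0.147) and Tep1 (0.163), beside a median of 0.429. For Dnmt3l, after Klhl6, they were Sox12 (0.369) and Ttll11 (0.371).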
